A study of Saccharomyces cerevisiae with 12 samples.

Results

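The small subunit processome is the large nucleolar particle in which the precursor of the small ribosomal subunit RNA is folded, modified and cleaved. Its protein subunits join the nascent transcript in steps. The UtpA and UtpB complexes bind early, the U3 small nucleolar ribonucleoprotein (snoRNP) base-pairs with the pre-rRNA and holds it in an open form, and enzymes such as GTPases, helicases and methyltransferases then remodel it until the particle is taken apart. In budding yeast these genes belong to the ribosome biogenesis group, whose transcription is known to follow growth conditions and signaling through the target of rapamycin and protein kinase A pathways.

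The members were the rows of the deposited count table that carry the systematic names of 41 yeast genes, out of 7110 rows in all. They comprise 7 genes of UtpA (*UTP4*, *UTP5*, *UTP8*, *UTP9*, *UTP10*, *UTP15* and *NAN1*), 6 of UtpB (*PWP2*, *DIP2*, *UTP6*, *UTP13*, *UTP18* and *UTP21*), 5 of the box C/D and U3 snoRNP (*NOP1*, *NOP56*, *NOP58*, *SNU13* and *RRP9*), 3 of the Mpp10 complex (*MPP10*, *IMP3* and *IMP4*), 9 of enzymes and their partners (*BMS1*, *RCL1*, *ECM16*, *UTP14*, *EMG1*, *NOP14*, *NOC4*, *UTP23* and *UTP25*) and 11 other factors (*UTP22*, *UTP7*, *UTP11*, *UTP20*, *UTP30*, *SOF1*, *KRR1*, *ENP1*, *BFR2*, *LCP5* and *SAS10*). The rule uses names and no measured value, although the list was proposed with earlier results of these data known. All 41 passed the filter on low counts in every comparison.

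RNA sequencing was done on 12 libraries of *Saccharomyces cerevisiae* of the S288c background, as 4 groups of 3 labelled replicates. Wild-type cells and *ups1*Δ cells, which lack the mitochondrial intermembrane space protein that carries phosphatidic acid to the inner membrane, were grown in glucose-containing SCD medium and were either left untreated or given 1 µg/ml tunicamycin for 3 h. Tunicamycin blocks N-linked glycosylation and thereby burdens protein folding in the endoplasmic reticulum. The comparisons ask how the loss of Ups1 and this stress, alone and together, bear on transcripts for protein synthesis.

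Library totals ran from 4650828 to 7101983 estimated counts. *UPS1* was at 0 counts in every untreated *ups1*Δ library and at most 2 counts in any treated one, against at least 185 in each wild-type library. The wild-type and *ups1*Δ libraries also differed in mating type: summed levels of 7 **a**-specific genes lay at 1480 to 3900 CPM (counts scaled to 1e6 per library) in wild-type and at 43.6 to 52.1 CPM in *ups1*Δ libraries, and *LYS2* and *MET17* were at 0 in all wild-type libraries only. The deletion therefore cannot be told apart from mating type and these marker loci in any comparison of genotypes. In bulk RNA, a smaller share of expressing cells and less transcript per cell cannot be told apart either. The third untreated *ups1*Δ library stood apart from the other 2 (chi-square per degree of freedom 16.7 and 20.1, against 2.09 between those 2), and all 41 members had their lowest value of that group in it, compared with 42.4% of the 5692 genes tested. Among treated wild-type libraries the second stood apart (29.1 and 31.2, against 10.3 between the other 2), and the summed **a**-specific level spread from 1480 to 3900 CPM within that group. Values without these libraries are given where they bear on a result.

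Promoters of ribosome biogenesis genes in yeast are known for 2 short elements, the polymerase A and C (PAC) element and the ribosomal RNA processing element (RRPE). Their cores, GATGAG for PAC and AAAAATTTT for RRPE, were searched on both strands from 250 bases before to 50 bases after each start codon in the R64 genome, the same build as sacCer3. A PAC core was present for 37 of 41 members (90.2%), against 20.4% of 6007 promoters. An RRPE core was present for 26 (63.4%, against 6.99%), and both for 25 (61.0%, against 3.58%). *UTP15* held RRPE alone, and *EMG1*, *UTP22* and *UTP30* held neither. The 54 PAC cores began at a median of 106.5 bases before the start codon and the 33 RRPE cores at a median of 134.0 bases. The same elements were as frequent before genes for large subunit assembly factors (PAC 91.0%, RRPE 67.2% of 67) and rare before cytosolic ribosomal protein genes (PAC 10.9%, RRPE 4.38% of 137), so they are shared across ribosome biogenesis genes. A match is a description of the letters in these windows and not evidence that a factor binds there.

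One stretch for each role group is printed around the gene's nearest pair of a PAC and an RRPE core. The cores are in capitals, with 8 further bases on each side. Each is the member with the largest difference in tunicamycin response among those whose window lay at least 80 bases before the start codon and overlapped no annotated gene. All are from RefSeq R64, read on the strand of the gene, 5′ to 3′.
*UTP5* (chrIV:1267260-1267301, plus strand): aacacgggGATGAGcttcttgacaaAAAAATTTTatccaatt
*UTP6* (chrIV:1358994-1359039, minus strand): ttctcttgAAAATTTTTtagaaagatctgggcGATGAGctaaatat
*SNU13* (chrV:101742-101776, plus strand): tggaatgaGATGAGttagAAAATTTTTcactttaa
*IMP4* (chrXIV:485451-485494, plus strand): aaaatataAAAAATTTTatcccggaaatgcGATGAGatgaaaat
*NOP14* (chrIV:190704-190750, minus strand): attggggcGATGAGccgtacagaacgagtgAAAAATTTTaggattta
*ENP1* (chrII:714562-714599, minus strand): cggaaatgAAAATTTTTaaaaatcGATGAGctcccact
The first bases of the 2 cores in these stretches were between 10 bases (*SNU13*) and 24 bases (*UTP6*) apart. Nearest pairs of members not printed lay up to 50 bases apart (*SAS10*). Within these pairs RRPE lay upstream of PAC in *UTP6*, *IMP4* and *ENP1* and downstream of it in *UTP5*, *SNU13* and *NOP14*. Each of the latter genes also had a core outside the printed stretch that gives the opposite order. These were PAC at 131 bases before the start codon in *UTP5*, RRPE at 221 in *SNU13* and PAC at 92 in *NOP14*. In most members with both cores, RRPE was the upstream core of the nearest pair.

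**Figure D1:**
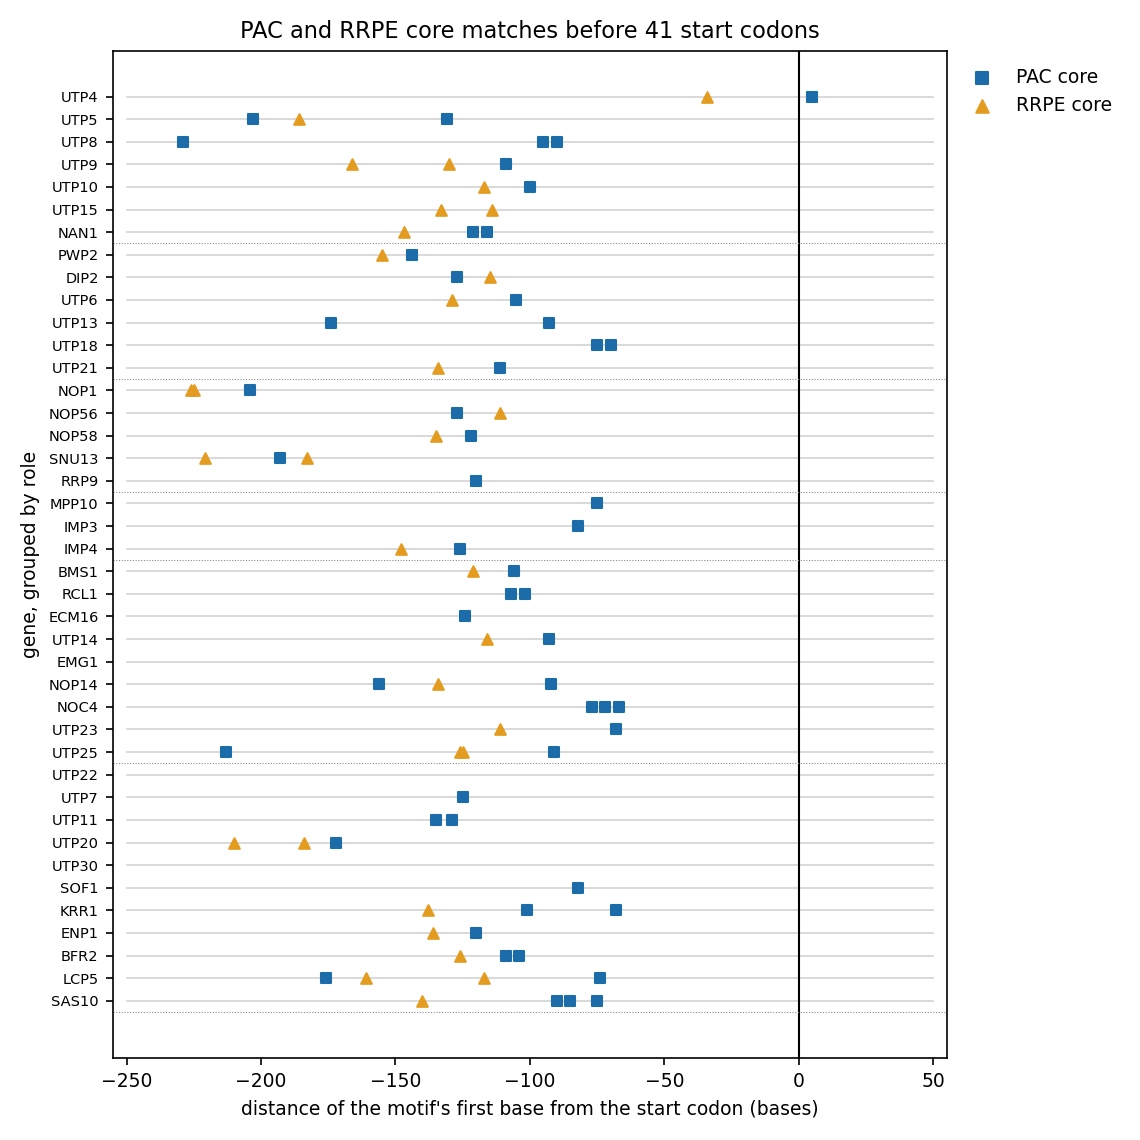
Positions of PAC core (squares) and RRPE core (triangles) matches relative to the start codon (0, in bases) for the 41 members, grouped by role. The 54 PAC and 33 RRPE matches have medians of 106.5 and 134.0 bases before the start codon, and *EMG1*, *UTP22* and *UTP30* have none.

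Tunicamycin lowered all 41 genes in wild-type cells, where 37.0% of all genes tested were lower. In *ups1*Δ cells it lowered none of them (11.9% of all genes tested). There 28 rose (15.2% of all genes tested) and 13 did not pass the test. Summed over members, transcripts were at 9770, 10100 and 9890 CPM in untreated wild-type libraries and at 7120, 7270 and 5340 CPM in untreated *ups1*Δ libraries. Treated wild-type libraries held 2990, 3260 and 3450 CPM, and treated *ups1*Δ libraries 8810, 8710 and 8300 CPM. The lowest group was thus treated wild type, untreated *ups1*Δ lay between, and treated *ups1*Δ came close to the untreated wild type. In summed CPM none of the 4 groups overlapped. As a share of all estimated counts the members made up 0.867% ± 0.015, 0.610% ± 0.0944, 0.399% ± 0.0305 and 0.862% ± 0.0364 (SD, n = 3) in untreated wild type, untreated *ups1*Δ, treated wild type and treated *ups1*Δ cells. By this share the treated *ups1*Δ libraries (0.879%, 0.887% and 0.82%) overlapped the untreated wild-type libraries (0.852%, 0.881% and 0.868%).

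Relative to the untreated wild-type mean of each gene, the median member was at 64.1% in untreated *ups1*Δ cells, with *UTP9* lowest at 50.1% and *BMS1* highest at 82.2%. In treated wild-type cells it was at 38.1%, from 12.6% for *SNU13* to 66.2% for *RCL1*. In treated *ups1*Δ cells it was at 91.0%, from 64.1% for *SNU13* to 128% for *RCL1*, and 12 members had a mean above that of untreated wild type. These shares are levels set side by side, and treated *ups1*Δ was not tested against untreated wild type.

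**Figure D2:**
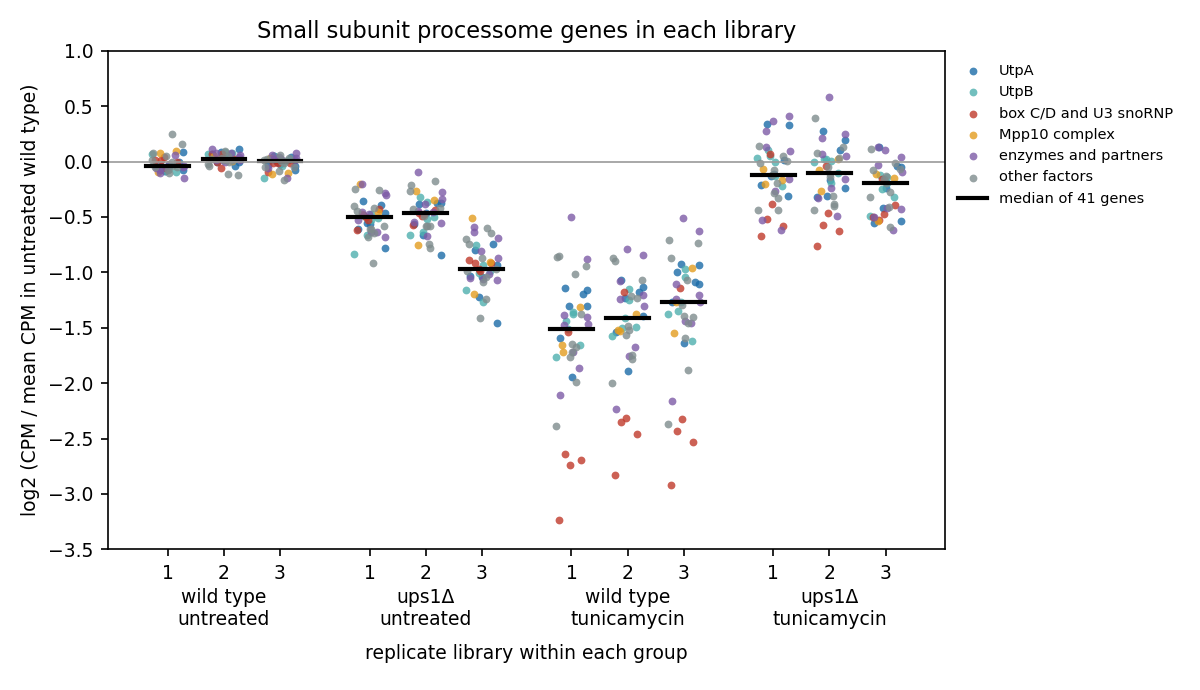
Each point is a member in a library, as log2 of its CPM over its mean CPM in untreated wild type, and black lines are medians of the 41 genes. Library medians were −0.492, −0.468 and −0.962 in untreated *ups1*Δ, −1.51, −1.41 and −1.27 in treated wild type, and −0.119, −0.104 and −0.198 in treated *ups1*Δ.

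In untreated cells, 39 of the 41 members were lower in *ups1*Δ than in wild type and 0 were higher by edgeR's quasi-likelihood test at an adjusted p under 0.05. Among all 5692 genes tested, 25.8% were lower and 26.5% higher. The counts were again 39 and 0 at an unadjusted p under 0.05 and 39 and 0 with DESeq2. The median log2 fold change of the members was −0.61, against 0.02 for all genes tested, and it ran from −0.97 (*UTP9*, a UtpA subunit) to −0.25 (*BMS1*, a GTPase of the processome). *BMS1* (edgeR adjusted p = 0.103) and *LCP5* (log2 fold change −0.41, edgeR adjusted p = 0.0901) did not pass. Without the third untreated *ups1*Δ library the median was −0.47 and 40 members were lower.

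Tunicamycin lowered all 41 members in wild-type cells, where 37.0% of 5785 genes tested were lower and 39.4% higher. None was higher at an unadjusted p under 0.05 or with DESeq2. The median was −1.41 on the log2 scale, against 0.05 for all genes tested, with a range from −3.00 (*SNU13*) to −0.62 (*RCL1*). Without the second treated wild-type library the median was −1.43 and all 41 were still lower. Scaling by library size alone instead of TMM moved the median of all genes to 0.57 and that of the members to −0.89, and *RCL1* then no longer passed (log2 fold change −0.10, edgeR adjusted p = 0.403).

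In *ups1*Δ cells the same treatment raised 28 members and lowered 0, with 15.2% of 5700 genes tested higher and 11.9% lower. At an unadjusted p under 0.05, 33 members were higher and 0 lower, and DESeq2 called 28 higher and 0 lower. The median was 0.51, against 0.01 for all genes tested, and the fold changes ran from 0.05 (*SNU13*) to 0.92 (*RCL1*). The 13 members that did not pass were *NOP1*, *NOP56*, *NOP58*, *SNU13*, *KRR1*, *EMG1*, *UTP23*, *MPP10*, *SAS10*, *UTP8*, *IMP3*, *UTP18* and *UTP15*. This count depended on the treated libraries: it was 14 without the first treated *ups1*Δ library and 13 without the second. Without the third untreated *ups1*Δ library 29 members passed, with a median of 0.35.

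Among treated cells, all 41 members were higher in *ups1*Δ than in wild type, with 32.7% of 5771 genes tested higher and 33.6% lower. The median was 1.32, against −0.03 for all genes tested, and the range was 0.79 (*UTP30*) to 2.34 (*SNU13*). It was 1.30 without the second treated wild-type library, with 41 higher. The test of the difference itself, the interaction of genotype and tunicamycin over 12 libraries, was past the threshold and positive for all 41 (32.9% of 5828 genes tested were positive and 33.2% negative). The median log2 ratio of the responses was 1.86, against −0.03 for all genes, from 1.40 (*UTP7*) to 3.03 (*SNU13*). Without the third untreated *ups1*Δ library this median was 1.73, the lowest when any library was left out. Without the second treated wild-type library it was 1.88, and all 41 stayed positive in each case. In both the comparison of treated cells and the interaction, 0 members went the other way, also at an unadjusted p under 0.05 and with DESeq2. The pairwise comparisons share groups of libraries and the interaction uses all of them, so their counts are not separate pieces of evidence.

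UtpA is the first complex on the pre-rRNA, and in yeast its subunits are also known as t-Utps for their link to transcription of ribosomal DNA. All 7 genes were lower in untreated *ups1*Δ cells (median −0.64) and fell with tunicamycin in wild type (median −1.17), and 5 rose with tunicamycin in *ups1*Δ (median 0.53). *UTP4* (YDR324C, chrIV:1114433-1116763), which encodes a WD-repeat subunit, was at 227, 242 and 230 CPM in untreated wild type and 60.6, 62.9 and 75.0 CPM after treatment. In *ups1*Δ it was at 158, 169 and 113 CPM untreated and 216, 207 and 198 CPM treated. The treated wild-type libraries lay lowest and no groups compared overlapped. *UTP4* fell by 1.84 ± 0.10 (log2, SE) in wild type (edgeR adjusted p = 1.45e-07) and rose by 0.51 ± 0.13 in *ups1*Δ (edgeR adjusted p = 0.0258), a difference in response of 2.31 ± 0.18, the largest in UtpA.

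*UTP15* (YMR093W, chrXIII:454015-455556), another WD-repeat subunit, had the smallest difference in UtpA. It was at 122, 137 and 129 CPM in untreated and 52.5, 54.9 and 68.0 CPM in treated wild type. In *ups1*Δ it was at 88.0, 81.8 and 55.3 CPM untreated and 118, 104 and 96.6 CPM treated. The third untreated *ups1*Δ library fell within the range of treated wild type. Its log2 fold change was −1.17 ± 0.11 in wild type and 0.51 ± 0.16 in *ups1*Δ (edgeR adjusted p = 0.0529), which did not pass although the 6 values did not overlap, and the difference was 1.64 ± 0.21. Of the remaining UtpA genes, *UTP9* was the most reduced member in untreated *ups1*Δ cells, and *UTP10*, which encodes the large HEAT-repeat subunit, rose by 0.76 with tunicamycin in *ups1*Δ. *UTP5* and *NAN1* rose there by 0.75 and 0.53. *UTP8* was at 0.38 there and did not pass.

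UtpB is a complex of WD-repeat and helical repeat proteins that contacts the pre-rRNA next to UtpA. Its 6 genes were all lower in untreated *ups1*Δ cells (median −0.62), all fell in wild type (median −1.43), and 5 rose in *ups1*Δ (median 0.57). *UTP6* (YDR449C, chrIV:1357580-1358902) was at 94.1, 93.9 and 80.6 CPM in untreated wild type, 26.4, 30.0 and 34.5 CPM in treated wild type, 50.3, 56.4 and 40 CPM in untreated *ups1*Δ and 91.7, 89.2 and 63.5 CPM in treated *ups1*Δ. Of the treated *ups1*Δ libraries, 2 of 3 were near the untreated wild-type level. The third was lower, at 63.5 CPM, but above every untreated *ups1*Δ library. The changes were −1.58 ± 0.12 in wild type and 0.75 ± 0.17 in *ups1*Δ (edgeR adjusted p = 0.014), and the difference was 2.30 ± 0.22.

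*UTP18* (YJL069C, chrX:310922-312706), whose product recruits the exosome-associated helicase Mtr4, was at 129, 140 and 136 CPM in untreated and 52.8, 56.6 and 69.1 CPM in treated wild type. Untreated *ups1*Δ libraries were at 97.4, 105 and 56.0 CPM, the third within the range of treated wild type, and treated ones were at 123, 118 and 118 CPM. The rise of 0.48 ± 0.21 in *ups1*Δ did not pass (edgeR adjusted p = 0.141), and the difference in response was 1.65 ± 0.25. The WD-repeat subunit genes *PWP2*, *DIP2*, *UTP13* and *UTP21* changed by −1.41, −1.21, −1.61 and −1.45 in wild type and rose by 0.71, 0.61, 0.45 and 0.52 in *ups1*Δ.

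**Figure D3:**
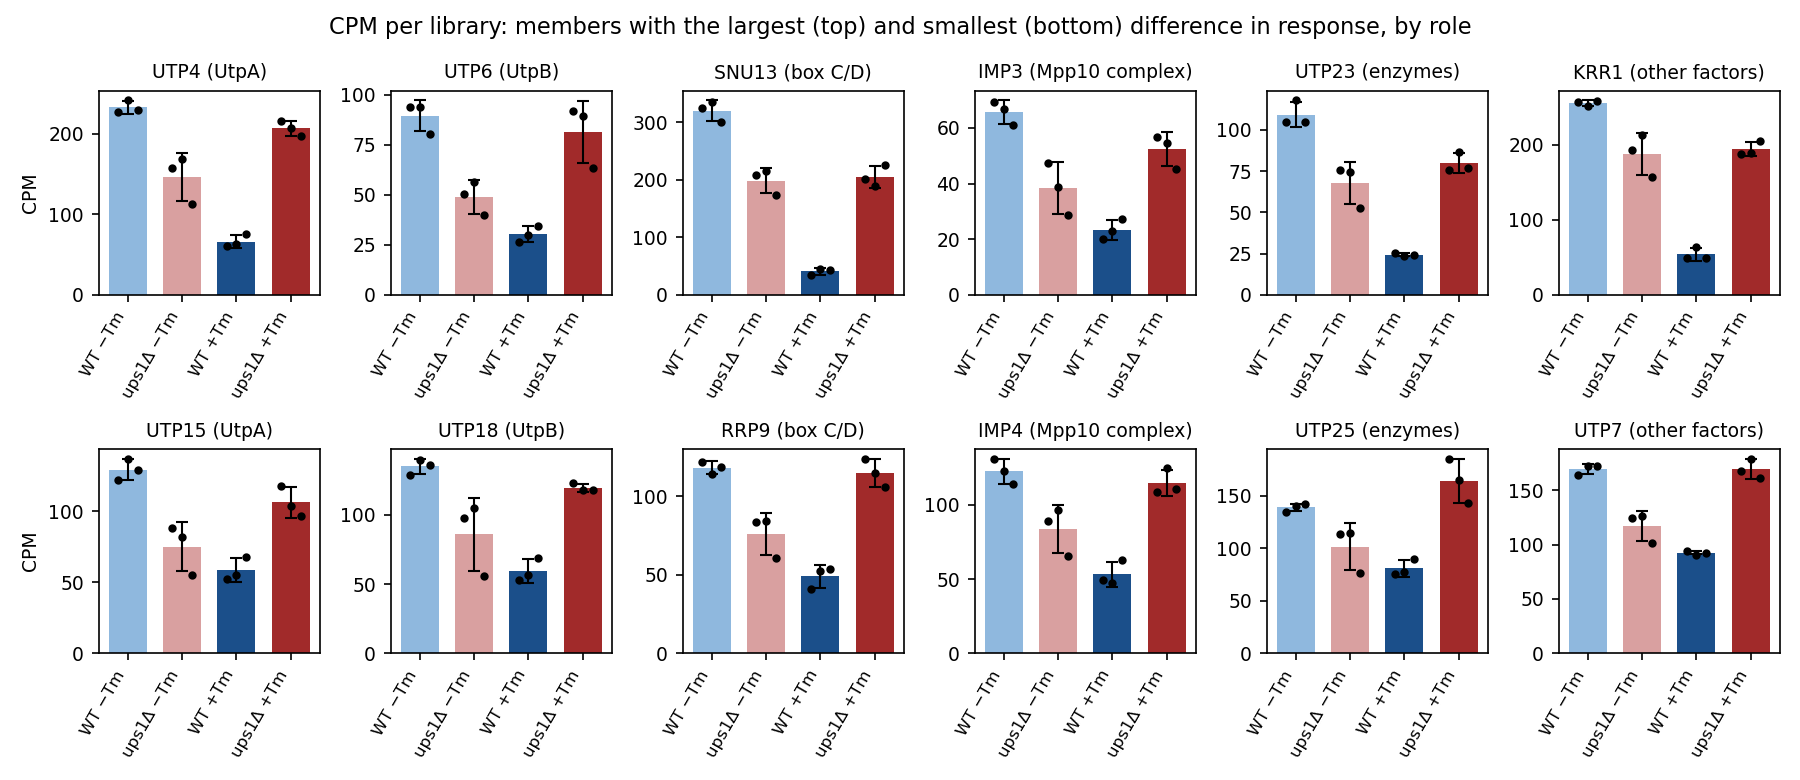
CPM of 12 members in the 4 groups (WT, wild type; −Tm, untreated; +Tm, tunicamycin), with points for libraries, bars for means and whiskers for SD (n = 3). The top row has the member of each role group with the largest and the bottom row that with the smallest difference in tunicamycin response, from *SNU13* (3.03) to *UTP7* (1.40).

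The box C/D core proteins stood at one end of the range. Nop1 (fibrillarin) is the 2′-O-methyltransferase of box C/D snoRNPs, Nop56 and Nop58 form their scaffold, and Snu13 binds the kink-turn of the snoRNA and is also part of the spliceosomal U4 particle. They serve all box C/D snoRNPs, not only U3. *SNU13* (YEL026W, chrV:101943-102323) was at 324, 336 and 300 CPM in untreated wild type and 33.9, 45.1 and 42.4 CPM after treatment. In *ups1*Δ it was at 208, 215 and 173 CPM untreated and 201, 189 and 226 CPM treated. The *ups1*Δ groups overlapped, whereas wild type dropped 8.02-fold, the largest fall of the 41 (−3.00 ± 0.12, edgeR adjusted p = 7.32e-08). In *ups1*Δ the change was 0.05 ± 0.10 (edgeR adjusted p = 0.725), and the difference was 3.03 ± 0.16.

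*NOP1* (YDL014W), *NOP56* (YLR197W) and *NOP58* (YOR310C) followed the same course, with log2 fold changes of −2.58, −2.49 and −2.46 in treated wild type and 0.05, 0.08 and 0.21 in treated *ups1*Δ, none of the latter past the threshold. Untreated *ups1*Δ cells had less of all 4 transcripts, by −0.55 to −0.66, close to the median of −0.61 for the other 37 members. The 4 genes were thus like the others in untreated cells but had a median of −2.54 in treated wild type, against −1.36 for the other 37 members, and 0.07 in treated *ups1*Δ, against 0.52. The split into 4 and 37 was made after these values were seen and was not tested.

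*RRP9* (YPR137W, chrXVI:802359-804080) encodes the WD-repeat protein specific to U3. It was at 122, 114 and 119 CPM in untreated and 40.7, 52.4 and 53.7 CPM in treated wild type, and at 83.9, 84.0 and 60.6 CPM in untreated and 124, 115 and 106 CPM in treated *ups1*Δ. Its values were like those of UtpA and UtpB genes and unlike those of the core proteins it joins on U3, with −1.29 ± 0.11 in wild type and 0.60 ± 0.13 in *ups1*Δ (edgeR adjusted p = 0.00898). Treated *ups1*Δ libraries overlapped the untreated wild-type range.

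**Figure D4:**
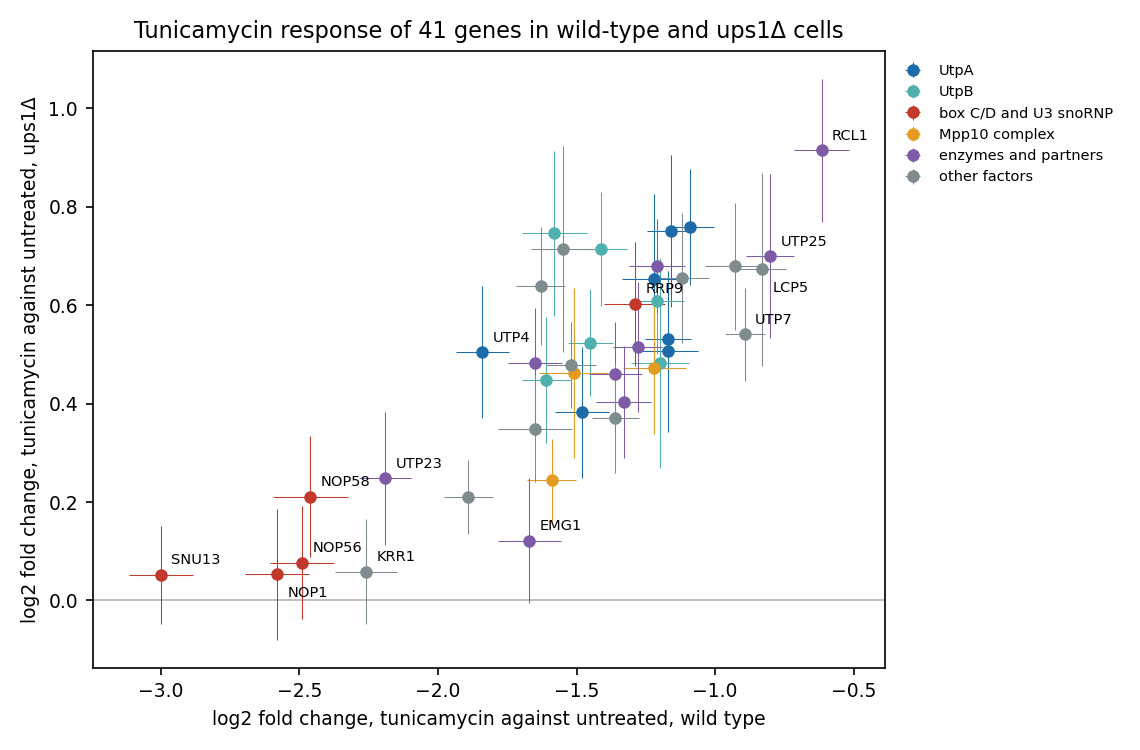
Log2 fold change with tunicamycin in wild type (horizontal) and in *ups1*Δ (vertical) for each of 41 members, colored by role, with SE as whiskers. *SNU13*, *NOP1*, *NOP56*, *NOP58* and *KRR1* lie at the lower left (−2.26 or below in wild type, 0.21 or below in *ups1*Δ), and *RCL1* lies at the upper right (−0.62 and 0.92).

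The 2 responses ran in parallel across members: the genes that fell most in wild type rose least in *ups1*Δ. Spearman's rho across the 41 genes was 0.747, and 0.658 across the 37 without the box C/D core genes, against 0.223 across 5671 genes tested in both. The responses come from separate libraries, but genes are not independent replicates and share libraries and depth. Members also differed in abundance. Per kilobase of coding sequence, *NOP1* was at 1140 CPM, *SNU13* at 840, *NOP56* at 534 and *NOP58* at 460 in untreated wild type, followed by *KRR1* at 268 and *EMG1* at 202, while *UTP20*, which encodes a very long HEAT-repeat protein, was lowest at 33.0. The spread from highest to lowest was 34.5-fold in untreated and 14.8-fold in treated wild type. By complex, levels were 67.7 to 89.2 CPM per kilobase in UtpB, 60.3 to 132 in UtpA and 119 to 167 in the Mpp10 complex, but 68.6 (*RRP9*) to 1140 (*NOP1*) in the box C/D and U3 snoRNP. More abundant members had lower fold changes: rho was −0.579 between the wild-type response and the level per kilobase in untreated *ups1*Δ, and −0.636 between the *ups1*Δ response and the level in untreated wild type. Over all genes tested that have a coding length, these values were −0.417 and −0.226.

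The Mpp10 complex binds U3 and the pre-rRNA, and Imp3 and Imp4 help the RNAs to pair. All 3 genes were lower in untreated *ups1*Δ and fell in treated wild type, and 1 rose in treated *ups1*Δ. *IMP3* (YHR148W, chrVIII:393534-394085) was at 69.3, 66.8 and 60.9 CPM in untreated wild type, 20, 22.8 and 27.3 CPM in treated wild type, 47.3, 38.9 and 28.7 CPM in untreated *ups1*Δ and 56.9, 54.7 and 45.3 CPM in treated *ups1*Δ. The *ups1*Δ groups overlapped, and the change of 0.46 ± 0.17 did not pass (edgeR adjusted p = 0.0788). *IMP4* (YNL075W, chrXIV:485607-486479) was at 131, 123 and 114 CPM in untreated and 49.5, 47.2 and 62.9 CPM in treated wild type, and at 89.2, 96.4 and 65.4 CPM in untreated and 109, 125 and 111 CPM in treated *ups1*Δ. It rose by 0.47 ± 0.13 in *ups1*Δ (edgeR adjusted p = 0.0307). *MPP10* itself had the second smallest reduction in untreated *ups1*Δ (−0.29) and was at 0.24 in treated *ups1*Δ without passing. The differences in response were 1.94 for *IMP3*, 1.80 for *MPP10* and 1.66 for *IMP4*.

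Among enzymes and their partners, 8 of 9 genes were lower in untreated *ups1*Δ, 9 fell in treated wild type and 7 rose in treated *ups1*Δ. *UTP23* (YOR004W, chrXV:333592-334356), which encodes a PIN-domain protein needed to release the snR30 snoRNA, was at 105, 118 and 105 CPM in untreated wild type and 25.4, 23.3 and 24.4 CPM after treatment. In *ups1*Δ it was at 75.7, 74.7 and 52.9 CPM untreated and 75.7, 86.8 and 77.1 CPM treated. Wild type dropped 4.55-fold (−2.19 ± 0.09, edgeR adjusted p = 8.90e-08), and the *ups1*Δ change of 0.25 ± 0.14 did not pass (edgeR adjusted p = 0.199). *UTP25* (YIL091C, chrIX:191030-193195), which encodes a helicase-like protein, was at 135, 140 and 142 CPM in untreated and 75.4, 77.3 and 89.8 CPM in treated wild type, and at 114, 115 and 76.1 CPM in untreated and 185, 165 and 143 CPM in treated *ups1*Δ. All 3 treated *ups1*Δ libraries lay above the untreated wild-type libraries, and the change in *ups1*Δ was 0.70 ± 0.17 (edgeR adjusted p = 0.0203).

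Bms1 and Rcl1 act as a pair, a GTPase and its cyclase-like partner. *RCL1* had the smallest fall in wild type (−0.62 ± 0.10) and the largest rise in *ups1*Δ (0.92 ± 0.15), while *BMS1* changed by −1.33 and 0.40. *ECM16*, the helicase Dhr1 that unwinds U3 from the pre-rRNA, and *UTP14*, its activator, changed by −1.36 and −1.28 in wild type and rose by 0.46 and 0.52 in *ups1*Δ. The methyltransferase gene *EMG1* fell by 1.67 in wild type and was at 0.12 in *ups1*Δ, which did not pass. *NOP14* and *NOC4*, whose products bind each other, had differences in response of 2.10 and 1.86.

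Of the 11 other factors, 10 were lower in untreated *ups1*Δ, 11 fell in treated wild type and 9 rose in treated *ups1*Δ. *KRR1* (YCL059C, chrIII:22429-23379), which encodes a KH-domain protein, was at 257, 251 and 258 CPM in untreated and 48.8, 64.0 and 49.3 CPM in treated wild type, and at 193, 213 and 157 CPM in untreated and 188, 189 and 205 CPM in treated *ups1*Δ. The *ups1*Δ groups overlapped (0.06 ± 0.11, edgeR adjusted p = 0.711), and the fall in wild type was 4.78-fold. *UTP7* (YER082C, chrV:324272-325936), which encodes a WD-repeat protein, had the smallest difference of all 41 members. It was at 164, 172 and 172 CPM in untreated and 93.7, 90.8 and 92.7 CPM in treated wild type, and at 124, 126 and 101 CPM in untreated and 168, 179 and 161 CPM in treated *ups1*Δ. Its changes were −0.89 ± 0.07 in wild type and 0.54 ± 0.09 in *ups1*Δ (edgeR adjusted p = 0.00384), and treated *ups1*Δ overlapped the untreated wild type.

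*SAS10*, whose product shares a domain with Lcp5, was nearer to *KRR1*, with −1.89 in wild type and 0.21 in *ups1*Δ, the latter not past the threshold. *LCP5* and *SOF1* were nearer to *UTP7*, with −0.83 and −0.93 in wild type and rises of 0.67 and 0.68 in *ups1*Δ. *BFR2* and *ENP1* had differences in response of 2.23 and 2.24. *UTP20*, *UTP11* and *UTP22* rose by 0.37, 0.35 and 0.48 in treated *ups1*Δ. *UTP30* was among the most reduced genes in untreated *ups1*Δ cells (−0.92) and had the smallest excess in treated *ups1*Δ over treated wild type (0.79). Members with both promoter cores had a median difference in response of 2.07, those with PAC alone 1.81 and the 3 with neither 1.77, and the ranges overlapped (1.47 to 3.03, 1.40 to 2.03 and 1.74 to 1.97).

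Most genes of other ribosome synthesis lists that passed the test in untreated *ups1*Δ and treated wild type did so in the same direction, and the pattern is not called particular to the processome. Of 67 large subunit assembly factor genes, 62 were lower in untreated *ups1*Δ (median −0.58), 67 fell in treated wild type (−1.63) and 39 rose in treated *ups1*Δ (0.41). A list of 44 further factors of small subunit precursor maturation is not strictly separate from the processome. Of these, 38 were lower, 43 fell and 20 rose (medians −0.50, −1.38 and 0.38), and 1 rose in treated wild type. Of 15 genes for RNA polymerase I subunits and its transcription factors, 10 were lower and 1 was higher in untreated *ups1*Δ. In treated wild type 12 of them fell and 1 rose. In treated *ups1*Δ 7 rose, with 8 not past the threshold there (medians −0.50, −0.60 and 0.37 in the same order). The 4 protein genes of the H/ACA snoRNPs, which guide pseudouridylation, resembled the box C/D core, with a median of −2.24 in treated wild type and −0.11 in treated *ups1*Δ, where none of the 4 passed by edgeR's test and 1 was lower at an unadjusted p under 0.05. Of 137 cytosolic ribosomal protein genes, 131 were lower in untreated *ups1*Δ and 136 fell in treated wild type (median −2.83). With tunicamycin in *ups1*Δ, 96 of them fell and 1 rose (median −0.36), the opposite direction to the processome genes.

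**Figure D5:**
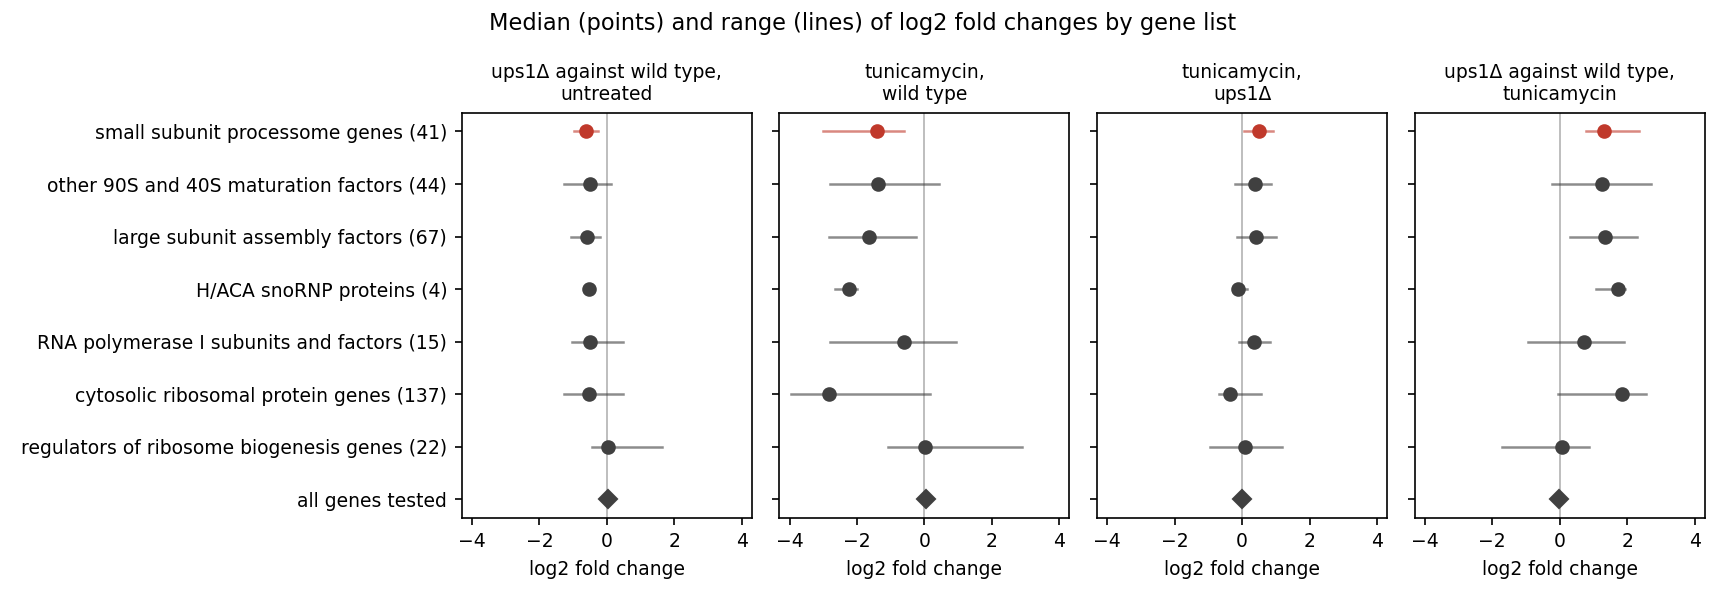
Median (points) and full range (lines) of log2 fold changes for the 41 members (red), 6 other gene lists and the median of all genes tested (diamond), in 4 pairwise comparisons. With tunicamycin in *ups1*Δ the members' median is 0.51 and that of the cytosolic ribosomal protein genes −0.36.

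Of 22 listed regulators of ribosome biogenesis or ribosomal protein genes, 8 rose and 8 fell in treated wild type, shares near those of all genes tested (39.4% and 37.0%). In treated *ups1*Δ 5 rose and 2 fell (15.2% and 11.9% of all genes tested), so the counts give no result about the regulators as a list. *STB3*, whose product binds RRPE and represses, rose by 0.92 in treated wild type and by 0.32 in treated *ups1*Δ, and was higher by 0.46 in untreated *ups1*Δ. Dot6 and Tod6 are PAC-binding repressors. *DOT6* rose by 0.55 in treated wild type and was at 0.22 in treated *ups1*Δ without passing. *TOD6* (YBL054W) was at 102, 106 and 105 CPM in untreated and 100, 74.3 and 98.9 CPM in treated wild type, and at 80, 84.9 and 61.5 CPM in untreated and 179, 179 and 146 CPM in treated *ups1*Δ. This repressor transcript was thus lower in untreated *ups1*Δ (−0.44 ± 0.11) and rose with tunicamycin there (1.17 ± 0.13, edgeR adjusted p = 4.47e-04), the directions in which most members also moved. *SFP1*, an activator of ribosome biogenesis genes, was higher by 0.42 in untreated *ups1*Δ and rose by 0.83 in treated wild type, where the members fell. *CRF1*, a corepressor of ribosomal protein genes, was at 2.88, 2.32 and 3.81 CPM in untreated and 25.2, 16.5 and 27.1 CPM in treated wild type, and at 9.38, 7.16 and 11.2 CPM in untreated and 6.01, 6.77 and 8.45 CPM in treated *ups1*Δ. Its difference in response was −3.30 ± 0.38, opposite in sign to that of the members. Transcript levels do not show the activity of these factors.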

How the data were processed

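Per the labels, each group has 3 numbered replicates. Nothing used here says that they are separate cultures, so p-values measure the spread between these samples, which may be technical. The authors quantified reads with kallisto against sacCer3 and deposited estimated counts per gene, which need not be whole. Deposited tables of pairwise DESeq2 comparisons hold normalized counts, fold changes and p-values and were not used. Estimated counts were stored as integers, without a rounding step. They were fitted with edgeR 4.0.16 in R 4.3.3 (filterByExpr, TMM scaling, robust quasi-likelihood test, Benjamini-Hochberg adjustment over all genes tested, threshold 0.05), on the 6 libraries of each pairwise comparison and on all 12 for the interaction. CPM are counts scaled to 1e6 per TMM-scaled library total. An SE is the absolute log2 fold change over the square root of the F statistic. Coding lengths, coordinates and sequences are from RefSeq R64, in which no member overlaps another annotated gene. Whether counting used strand is not given in the sources used here.

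The members and gene lists were chosen with earlier results of these data known. All 41 members are named by role. Values by library are given for the member of each role group with the largest and with the smallest interaction, and would have been given for any member past the threshold against the majority, of which there were 0. *NOP1*, *NOP56* and *NOP58* as a set with *SNU13*, *RCL1* and the regulators described by library were singled out after their values were seen. The test was also run on simulated counts with known changes. These had the same spread setting for every gene and no library that stood apart, so the run does not show how the test performs on these data. Alternatives were DESeq2 1.42.0, its size factors in edgeR, scaling by library size alone, omission of the filter or a minimum of 10 counts in each library, a replicate block, 1 fit of all libraries, and leaving out each library.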

Additional observations from a re-analysis of the deposited data

Results flagged for a closer look

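Each of the 41 genes responded to tunicamycin differently in *ups1*Δ and wild-type cells by the interaction test (edgeR's quasi-likelihood test, adjusted over 5828 genes), which is why all are listed here. The values are log2 ratios of the response in *ups1*Δ over that in wild type. In UtpA they were 2.31 for *UTP4*, 1.88 for *UTP5*, 1.83 for *UTP8*, 1.84 for *UTP9*, 1.82 for *UTP10*, 1.64 for *UTP15* and 1.67 for *NAN1*. In UtpB they were 2.10 for *PWP2*, 1.79 for *DIP2*, 2.30 for *UTP6*, 2.03 for *UTP13*, 1.65 for *UTP18* and 1.94 for *UTP21*. The box C/D and U3 genes had 2.60 (*NOP1*), 2.54 (*NOP56*), 2.64 (*NOP58*), 3.03 (*SNU13*) and 1.87 (*RRP9*), and the Mpp10 complex 1.80 (*MPP10*), 1.94 (*IMP3*) and 1.66 (*IMP4*). Enzymes and their partners had 1.71 (*BMS1*), 1.5 (*RCL1*), 1.79 (*ECM16*), 1.77 (*UTP14*), 1.77 (*EMG1*), 2.10 (*NOP14*), 1.86 (*NOC4*), 2.41 (*UTP23*) and 1.47 (*UTP25*). The other factors had 1.97 (*UTP22*), 1.40 (*UTP7*), 1.97 (*UTP11*), 1.70 (*UTP20*), 1.74 (*UTP30*), 1.58 (*SOF1*), 2.29 (*KRR1*), 2.24 (*ENP1*), 2.23 (*BFR2*), 1.47 (*LCP5*) and 2.07 (*SAS10*). Genotype cannot be told apart from mating type and marker loci in these values.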

How the results depend on the processing

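The 41 calls in treated wild type, between treated genotypes and in the interaction held under the alternatives run, except that of *RCL1* in treated wild type with scaling by library size alone. Scaling by library size alone gave medians of −0.89 in treated wild type, 1.02 between treated genotypes and 1.47 for the interaction, and moved the share of lower calls among all genes called from 48.4% to 25.9%, from 50.7% to 70.6% and from 50.2% to 70.6% in the 3, and in untreated genotypes from 49.4% to 41.7% and treated *ups1*Δ from 44.0% to 22.5%. Leaving out each library gave 33 to 40 lower members in untreated *ups1*Δ and 13 to 29 higher members in treated *ups1*Δ. Where a library was left out, the change in treated *ups1*Δ took both signs for *NOP1* (−0.0997 to 0.124), *NOP56* (−0.0633 to 0.143), *SNU13* (−0.0457 to 0.109), *KRR1* (−0.0639 to 0.152) and *EMG1* (−0.0267 to 0.242), none of which passed with all libraries. Replicate numbers gave no sign of pairing: 3 of 18 same-numbered and 9 of 36 differently numbered pairs had a correlation of deviations over 0.1. With 3 libraries in a group, some of which stood apart, this cannot exclude that samples were paired. With a replicate block 40 members were lower in untreated *ups1*Δ and 31 higher in treated *ups1*Δ, with 41 in the other 3 comparisons.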
